A study of Mus musculus with 16 samples.

Results

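The nuclear genes described here encode proteins of the mitochondrial ribosome (symbols beginning Mrpl for the large and Mrps for the small subunit), translocases of the inner (Timm) and outer (Tomm) mitochondrial membrane, and small proteins with paired cysteines that act in the intermembrane space or elsewhere in mitochondria (Chchd). Genes were taken in by symbol, and the set was chosen with earlier results of these data known. Of 90 such genes with a probe naming no other gene, 82 had a value in both dye orientations of every mouse and were analysed, among 6191 genes tested in all. They comprised 38 Mrpl, 19 Mrps, 11 Timm, 7 Tomm and 7 Chchd genes. The 8 left out for blank values were Chchd5, Mrpl44, Mrpl53, Mrpl55, Mrps15, Mrps22, Mrps33 and Tomm7.

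The study compared kidneys of mice lacking Pept2 (Slc15a2), a proton-coupled transporter by which the proximal tubule recovers small peptides from the filtrate, with wild-type kidneys on spotted cDNA arrays. The knockout group was 4 Pept2-/- males, one right kidney each, and the reference was 1 RNA pool of the right kidneys of 5 Pept2+/+ mice. All were 88 (±2) days old, untreated as far as the labels say, of a mixed C57BL/6 and 129Sv background, and descended from F4 animals of one Pept2+/- line. Each knockout mouse was measured on 4 arrays against the pool, with its RNA in channel 2 on arrays 1 and 3 and in channel 1 on arrays 2 and 4. A gene's value in a mouse is the log2 ratio of knockout over pool, averaged within each dye orientation and then over the 2 orientations. Where an array is blank, 1 array can thus stand for an orientation. The n is 4 mice, except that the F test between mice and the random block fit below use the 16 arrays. The pool carries no spread between wild-type animals, and its own error is shared by every mouse.

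Slc15a2 had a log2 ratio of -2.51 (SE 0.16, n = 4, adjusted p = 2.17e-05 by limma), from -2.81 to -2.17 in the 4 mice. That direction is the likely one: the sources used here do not say which channel is the numerator, and it was read so that the deleted gene is lower in knockout kidney, as it then was on all 16 arrays. Under the other reading every "above" and "below" in this text changes places. Between 10134 and 18400 of 20205 probes had a value on an array, 44 of the 82 genes had a value on all 16 arrays, and the fewest arrays for any of them was 11. The values are ratios, so that levels of kidney markers cannot be read from them. Of the 12 proximal tubule markers listed, 8 were measured, with a median ratio of 0.044, and 1 of them, the organic anion transporter gene Slc22a8, was above 0 past the threshold (0.48, adjusted p = 0.0149 by limma). Collecting duct markers (5 of 10 measured) had a median of 0.055, endothelial markers (3 of 7) of -0.17 and leukocyte markers (4 of 7) of 0.097, with none called, and their part in the ratios below was not tested. In whole kidney, fewer cells of a type and less RNA per cell cannot be told apart.

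Mitochondria make a handful of respiratory chain proteins on their own ribosome, whose RNA comes from mitochondrial DNA and whose proteins are all made in the cytosol. Those proteins and nearly all others of the organelle enter through the TOM complex of the outer membrane. From there the TIM23 complex carries proteins with a presequence into the matrix, the small TIM chaperones pass hydrophobic carriers to the TIM22 complex of the inner membrane, and the Mia40 relay, which holds Chchd4, oxidises cysteine-rich proteins. Proximal tubule cells are packed with mitochondria, which supply the ATP for reabsorption.

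Promoters of these genes are shown first because members of one small family, the small TIMs, had some of the lowest ratios and because mitochondrial genes of the nucleus are known for promoters with sites for ETS factors such as GABPA, for NRF1 and for YY1. RefSeq promoter windows (GRCm38.p6, 250 bases before to 50 after each start) were matched by symbol for 72 of the 82 genes, with 80 windows. Both strands were searched for an ETS core (CCGGAAG), an NRF1 core (CGCATGCG), a YY1 site (AAGATGGCG) and a TATA box (TATAAA), none of which contains another. The 120 bases before the start are printed 5′ to 3′ on the gene's strand for Mrpl42, Timm8b and Timm9, which had the smallest p-values, for Timm10 as another small TIM, and for Timm17a, which differed between mice. Capitals mark matches that lie inside the printed stretch.
Mrpl42, chr10:95501950-95502069, minus strand: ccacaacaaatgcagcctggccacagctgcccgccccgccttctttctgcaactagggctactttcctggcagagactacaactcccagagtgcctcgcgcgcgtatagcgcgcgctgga
Timm8b, chr9:50603781-50603900, plus strand: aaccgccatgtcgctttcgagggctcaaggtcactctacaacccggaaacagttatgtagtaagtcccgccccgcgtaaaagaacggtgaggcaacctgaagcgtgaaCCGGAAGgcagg
Timm9, chr12:71136676-71136795, minus strand: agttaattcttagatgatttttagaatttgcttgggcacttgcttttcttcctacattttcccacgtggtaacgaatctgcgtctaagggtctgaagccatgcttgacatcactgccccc
Timm10, chr2:84826901-84827020, plus strand: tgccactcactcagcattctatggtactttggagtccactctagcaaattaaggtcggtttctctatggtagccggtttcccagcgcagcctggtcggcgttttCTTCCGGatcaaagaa
Timm17a, chr1:135313738-135313857, minus strand: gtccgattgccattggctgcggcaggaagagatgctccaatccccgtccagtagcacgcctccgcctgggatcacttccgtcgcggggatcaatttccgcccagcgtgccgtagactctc

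The ETS core began 12 bases before the start of Timm8b and, on the reverse strand, 16 bases before that of Timm10, and no searched motif lay in the printed stretches of Mrpl42, Timm9 or Timm17a. Mrpl42 had a YY1 site beyond its printed stretch, from base 28 after the start. The GC content of these 120 bases had a median of 60.4% for the 80 windows, 64.2% for those of tested genes and 54.2% for all. Of the 80 windows, 35% held the ETS core, against 17% of the 6515 windows of tested genes and 8.86% of all 32851 windows of the same length. The YY1 site lay in 11.2% of the 80, in 3.33% of the windows of tested genes and in 1.4% of all. The NRF1 core was found in 6.25%, 3.7% and 1.87%, and the TATA box in 8.75%, 7.35% and 13.6%, in the same order. The median ratio was -0.065 for the 27 genes with an ETS core (22 below 0) and -0.043 for the 45 without (28 below 0). For the 9 genes with a YY1 site it was 0.003, against -0.050 for the 63 without. With and without the NRF1 core it was -0.026 (5 genes) and -0.050, and with and without the TATA box -0.080 (7 genes) and -0.044. Over all tested genes the medians with and without a motif were -0.013 and 0.000 for ETS, -0.006 and -0.003 for YY1, -0.021 and -0.002 for NRF1, and -0.012 and -0.003 for the TATA box. These are descriptions of letters in a window, with no test.

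The knockout comparison asks whether loss of the transporter went with a different level of these transcripts. None of the 82 genes differed from the pool after adjustment over all genes (limma, Benjamini-Hochberg), where 0.21% of all genes did (13 of 6191, 9 below and 4 above 0), and the smallest adjusted p among the 82 was 0.115. At an unadjusted p under 0.05 there were 14 (17.1%), close to the 16.8% of all genes. Of the 14, 12 (14.6% of the 82) had a ratio below 0, where 10% of all genes did, and 2 (2.44%) one above 0, where 6.8% did. The median ratio was -0.045, against -0.004 over all genes, and 56 genes (68.3%) were below 0, against 51.8%. A ratio below 0 in all 4 mice was found for 17 of the 82 genes, where 14.3% of all genes had one, and a ratio above 0 in all 4 mice for 4, where 11.4% did. Taken mouse by mouse, from the first to the fourth, the median was -0.034, -0.009, -0.040 and -0.056.

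The intervals from these tests concern the ratio to this 1 pool, gene by gene. They hold neither the error of the pool nor the spread between wild-type animals, so they do not bound a difference from wild-type mice. The 95% intervals (limma) of all 82 genes lay within a 1.5-fold difference in either direction, as did those of 99.2% of all genes, and 67 of 82 (81.7%) lay within 1.2-fold, as did 82.1% of all genes. The lowest lower bound was -0.44, for Mrpl33, and the highest upper bound 0.24, for Mrpl4. The median SE was 0.044 among the 82 genes and 0.050 over all genes.

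Arrays differed in how far these genes lay below 0. The median of the 82 genes was below that of all genes on 13 of 16 arrays, and ranged from -0.15 on array 2 of mouse 1 to 0.033 on array 4 of the same mouse. On array 2 of mouse 1, 21 of 69 genes with a value (30.4%) were below -0.3, against 10.7% of all genes, and on array 2 of mouse 4, 20 of 81 (24.7%) were, against 13.4%. The other arrays of mouse 1 had shares of 5.06%, 3.95% and 2.56%, against 3.32%, 7.1% and 5.87% of all genes. Shares over 12% were also found on array 3 of mouse 3 (22.1%, all genes 20.7%), array 1 of mouse 4 (18.5%, all genes 16.2%), arrays 2 and 4 of mouse 3 (14.6% and 14.3%, all genes 9.82% and 10.6%) and array 3 of mouse 4 (12.7%, all genes 9.05%). Without array 2 of these 2 mice, a choice made after seeing the data, the median was -0.018 against -0.002 for all genes. There were then 54 genes below 0, close to the 56 with all arrays, and 8 of 82 (9.76%) at an unadjusted p under 0.05, against 15% of all genes.

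**Figure D1:**
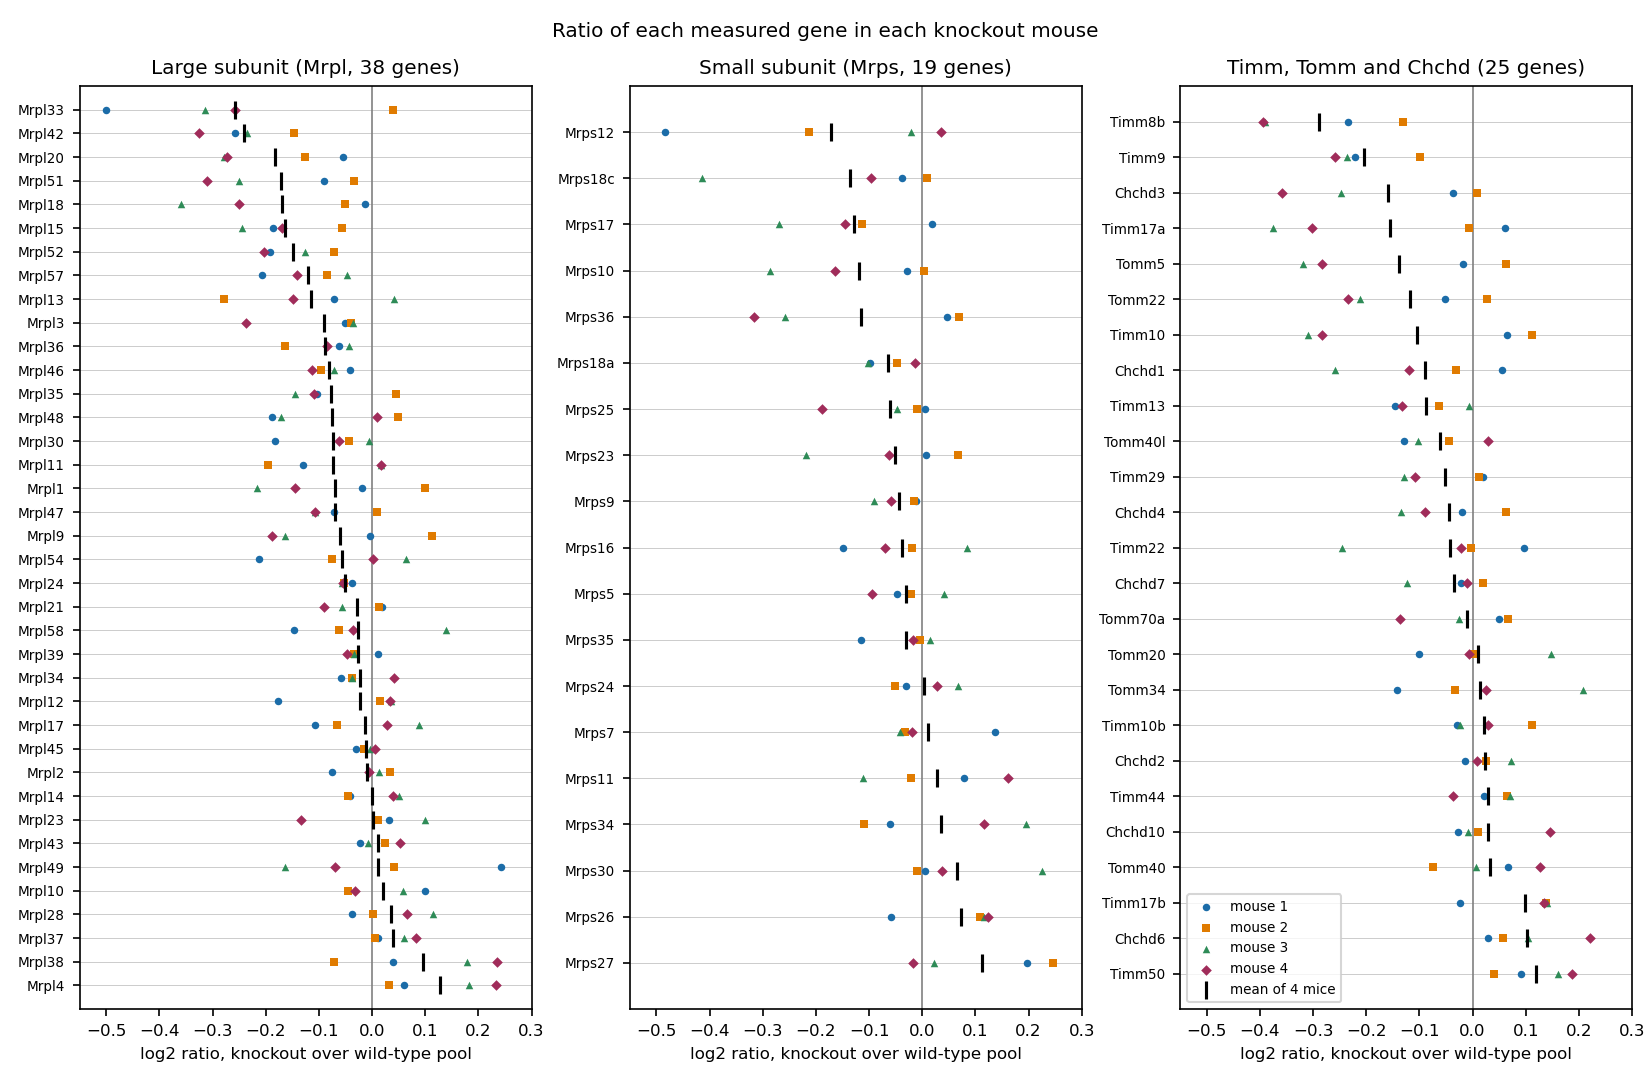
Log2 ratio of knockout over wild-type pool (x axis) for each of the 82 genes (rows, ordered by mean), with 1 symbol per mouse and a black bar at the mean of 4 mice, in panels for the large subunit, the small subunit, and the Timm, Tomm and Chchd genes. Most means lie between -0.2 and 0.1, Timm8b is lowest at -0.29 and Mrpl4 highest at 0.13, and the mice of 1 gene often spread across 0.

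Among proteins of the large ribosomal subunit, 29 of 38 genes had a ratio below 0 (76.3%, against 51.8% of all genes). Their median was -0.058, and 8 genes below and 1 above 0 had an unadjusted p under 0.05. Together these were 23.7% of the 38, against 16.8% of all genes. Mrpl42, a subunit found in mitochondrial but not bacterial ribosomes, read -0.26, -0.15, -0.24 and -0.33 in mice 1 to 4. It was below 0 on each of its 16 arrays, and no mouse reached 0. Its mean was -0.24 (SE 0.037, 95% interval -0.35 to -0.13), with p = 0.000846 and an adjusted p of 0.115 by limma. The ratio was -0.32 with knockout RNA in channel 1 and -0.16 with it in channel 2, a difference that did not pass the orientation test (adjusted p = 0.309 by limma).

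Single arrays weighed on the size of that value. In mouse 1 Mrpl42 read -0.15, -0.69, -0.02 and -0.17 on arrays 1 to 4, and in mouse 4 it read -0.44, -0.60, -0.12 and -0.14. Array 2 was the lowest in both. Without array 2 of mice 1 and 4 its mean was -0.18 (adjusted p = 0.185 by limma).

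Mrpl33, one of the smallest proteins of the large subunit, had the lowest mean of the family and spread far more. It read -0.50, 0.040, -0.32 and -0.26 in mice 1 to 4, so that mouse 2 alone lay above 0. The mean was -0.26 (SE 0.11, adjusted p = 0.185 by limma), and the standard deviation between mice, 0.22, was the second highest among the 82 genes. Without array 2 of mice 1 and 4 its mean was -0.15 (adjusted p = 0.33 by limma).

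Mrpl20 and Mrpl15, both with bacterial counterparts in the large subunit, were below 0 in all 4 mice. Mrpl20 read -0.055, -0.13, -0.28 and -0.27, with a mean of -0.18 (SE 0.055, adjusted p = 0.177), and Mrpl15 read -0.19, -0.056, -0.24 and -0.17, with a mean of -0.16 (SE 0.039, adjusted p = 0.178). Mrpl51 (-0.17, SE 0.065), Mrpl18 (-0.17, SE 0.082), Mrpl52 (-0.15, SE 0.031) and Mrpl57 (-0.12, SE 0.035) were also below 0 in all 4 mice, with adjusted p-values by limma between 0.185 and 0.261. The means of Mrpl20, Mrpl15, Mrpl51 and Mrpl57 without array 2 of mice 1 and 4 were -0.11, -0.10, -0.10 and -0.07, with adjusted p-values from 0.382 to 0.468. Mrpl18 was near 0 in mice 1 and 2 (-0.014 and -0.050) and lower in mice 3 and 4 (-0.36 and -0.25). In mice 1 and 2 its arrays ran from -0.27 to -0.12 with knockout RNA in channel 2 and from -0.03 to 0.23 with it in channel 1. Over the 4 mice Mrpl18 was at -0.063 in channel 1 and -0.27 in channel 2 (orientation p = 0.0215, adjusted p = 0.195 by limma).

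The 2 highest ratios of the large subunit belonged to Mrpl4 and Mrpl38. Mrpl4, which has a bacterial counterpart, was above 0 in every mouse, at 0.060, 0.031, 0.18 and 0.23. Its mean was 0.13 (SE 0.048, p = 0.0374, adjusted p = 0.271 by limma), and 2 of its 16 arrays were below 0. Mrpl38 read 0.040, -0.072, 0.18 and 0.24, with a mean of 0.095 (SE 0.069, adjusted p = 0.422). The other 28 genes of the large subunit had ratios from -0.11 to 0.04, with 21 below 0 and no unadjusted p under 0.0844.

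In the small subunit 12 of 19 genes were below 0 (63.2%, against 51.8% of all genes), with a median of -0.039. An unadjusted p under 0.05 was found for 1 (5.26%, against 16.8% of all genes). That gene was Mrps17, which has a bacterial counterpart. It read 0.018, -0.11, -0.27 and -0.15 in mice 1 to 4, with a mean of -0.13 (SE 0.059, p = 0.0476, adjusted p = 0.291 by limma). Mouse 1 alone lay above 0. A further Mrps17 probe, with values on 11 arrays and so not used, read -0.06, 0.04, 0.43 and -0.09, and with a looser filter that admits it the gene was at -0.02 (adjusted p = 0.847 by limma).

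Mrps12, whose bacterial counterpart helps decode the message, had the largest spread between mice of all 82 genes (SD 0.23). It read -0.48, -0.21, -0.022 and 0.035 in mice 1 to 4, a mean of -0.17 (SE 0.12, adjusted p = 0.329). Within mouse 1 its 3 arrays with a value read -0.46, -0.99 and -0.24, and in mouse 2 the arrays ran from -0.59 to 0.20, so that repeat arrays of 1 animal also differed. The F test between mice gave an adjusted p of 0.285.

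Mrps18c, a paralogue of Mrps18a, had values on 11 arrays and read -0.038, 0.008, -0.42 and -0.097 (mean -0.14, SE 0.096). Mrps10 had a mean of -0.12 (SE 0.067) and Mrps36 of -0.12 (SE 0.10), with Mrps36 above 0 in mice 1 and 2 (0.047 and 0.069) and below in mice 3 and 4 (-0.26 and -0.32). Mrps36 is listed here by its symbol, although its product is known mainly as a subunit of the oxoglutarate dehydrogenase complex. The highest ratios were those of Mrps27 (0.11, SE 0.064) and Mrps26 (0.072, SE 0.044). Adjusted p-values of these 5 genes lay between 0.337 and 0.467 by limma, and the other 12 genes had ratios from -0.06 to 0.06.

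The inner membrane translocase genes held 3 unadjusted p-values under 0.05 among 11, 27.3% against 16.8% of all genes. Of the 3, 2 were below and 1 was above 0, and the median of the 11 was -0.051. The 5 measured small TIM genes, which encode the chaperones that shield hydrophobic proteins in the intermembrane space, included the lowest ratio of all 82. Timm8b read -0.24, -0.13, -0.39 and -0.39 in mice 1 to 4, below 0 in each. Its mean was -0.29 (SE 0.064, 95% interval -0.42 to -0.16), with p = 0.000847 and an adjusted p of 0.115 by limma.

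The arrays of Timm8b show how much repeats of 1 kidney differed. In mouse 1 they read -0.23, -0.70, -0.09 and 0.08 and in mouse 4 -0.36, -0.74, -0.39 and -0.08, while in mouse 3 they lay between -0.51 and -0.15. In mouse 2 array 1 was blank and arrays 2 to 4 read 0.03, -0.28 and 0.01. The value of mouse 2 below 0 thus rested on array 3, its only array with knockout RNA in channel 2. In all, 12 of 15 arrays were below 0. Without array 2 of mice 1 and 4 the mean was -0.20 (adjusted p = 0.235 by limma).

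Timm9, which forms a ring-shaped chaperone with Timm10, read -0.22, -0.098, -0.24 and -0.26 in mice 1 to 4. Its mean was -0.20 (SE 0.036, 95% interval -0.31 to -0.095, p = 0.0024, adjusted p = 0.148 by limma), and 15 of its 16 arrays were below 0. The value of mouse 1 rested on array 2, at -0.75, since the other arrays of that mouse lay between -0.10 and 0.04. Without array 2 of mice 1 and 4 the mean was -0.14 (adjusted p = 0.261).

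Timm10 itself did not share that evenness. It read 0.065 and 0.11 in mice 1 and 2 and -0.31 and -0.28 in mice 3 and 4, a mean of -0.10 (SE 0.11, adjusted p = 0.512), and the F test between mice gave an adjusted p of 0.0924. Timm13, the usual partner of the Timm8 proteins, was below 0 in all 4 mice (mean -0.087, SE 0.032, adjusted p = 0.366). That held in 1 orientation only: Timm13 was at 0.006 with knockout RNA in channel 1 and -0.18 with it in channel 2. The orientation test gave p = 0.0434 and an adjusted p of 0.244 by limma. Timm10b was at 0.022 (SE 0.033).

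**Figure D2:**
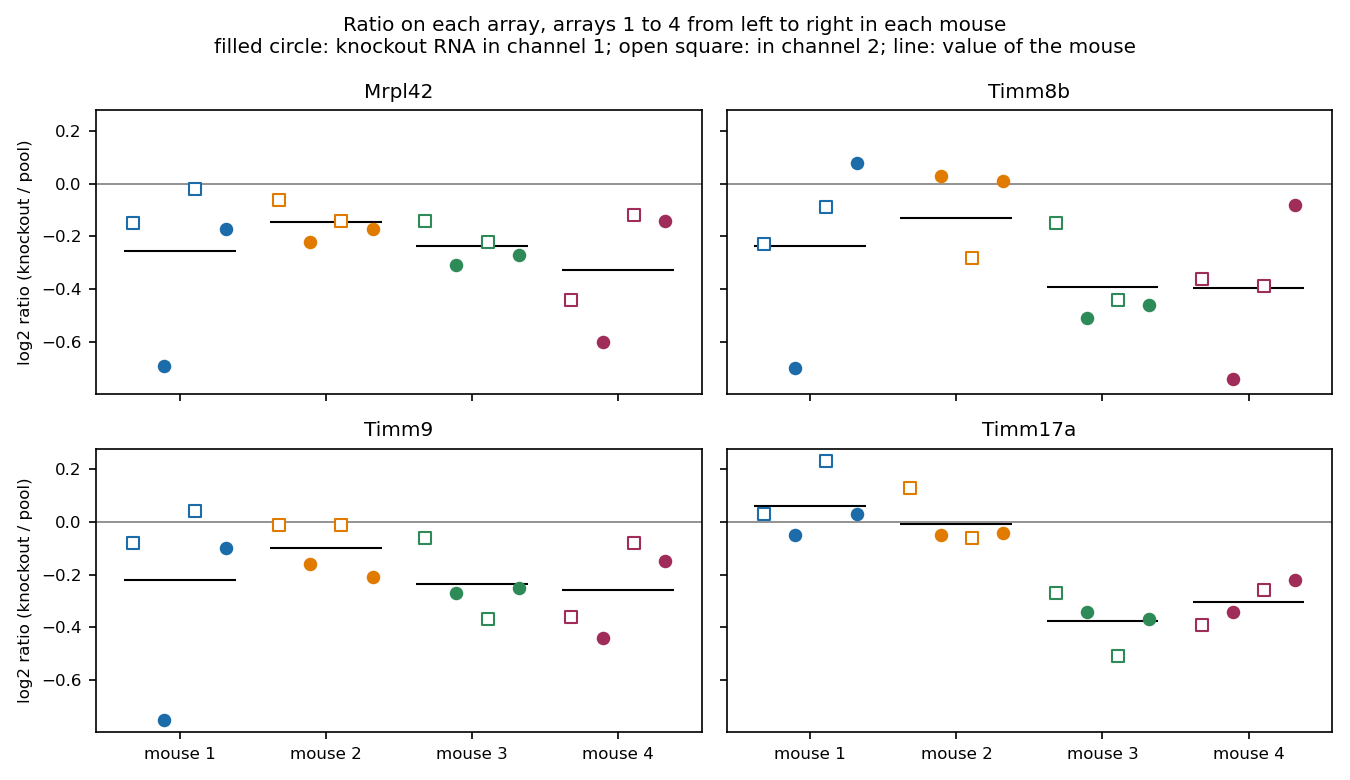
Log2 ratio of knockout over pool (y axis) on each array, with arrays 1 to 4 of a mouse from left to right, for Mrpl42, Timm8b, Timm9 and Timm17a. Filled circles have the knockout RNA in channel 1, open squares have it in channel 2, and black lines are the value of the mouse. Array 2 of mice 1 and 4 is low for the first 3 genes, and Timm17a is below -0.2 on all 8 arrays of mice 3 and 4 and on none of mice 1 and 2.

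Of the TIM23 complex, Timm50, the receptor that takes presequences arriving from the outer membrane, had a ratio above 0 in every mouse, at 0.092, 0.040, 0.16 and 0.19. Its mean was 0.12 (SE 0.033, p = 0.0325, adjusted p = 0.26 by limma), its 2 probes read 0.15 and 0.09, and 3 of its 16 arrays were below 0. Timm17b, a channel subunit, was at 0.098 (SE 0.040, adjusted p = 0.343), with mouse 1 at -0.023 and the others between 0.13 and 0.14. Timm44, which tethers the import motor, was at 0.030 (SE 0.025). Timm22, the core of the carrier translocase, was at -0.043 (SE 0.072), and Timm29, another subunit of that complex, at -0.051 (SE 0.039).

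Timm17a, the paralogue of Timm17b in the TIM23 channel, was the 1 gene of the 82 that differed between the knockout mice (1.22%, where 2.54% of all genes did, 157 of 6191). It read 0.062 and -0.007 in mice 1 and 2 and -0.38 and -0.30 in mice 3 and 4. On single arrays mice 1 and 2 ran from -0.06 to 0.23 and mice 3 and 4 from -0.51 to -0.22, without overlap. Both probes showed this order, with mice 1 and 2 between -0.01 and 0.08 and mice 3 and 4 between -0.39 and -0.26. The moderated F test over arrays gave F = 11.3 and an adjusted p of 0.0165. Arrays are repeats of 1 RNA sample, so the difference is one between single animals and says nothing of genotype.

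The call rested on which mice were in the fit: it was kept without mouse 4 (adjusted p = 0.0368) and lost without mouse 1 (0.149), mouse 2 (0.0766) or mouse 3 (0.146), each by the same F test. Against the pool Timm17a had a mean of -0.16 (SE 0.11, adjusted p = 0.34 by limma). The same 2 mice carried other signals: of 4 seminal vesicle markers listed, Svs5 was measured, and its ratio was 0.21 and -0.092 in mice 1 and 2, 4.94 in mouse 3 and 1.09 in mouse 4. Its part in the values of Timm17a was not tested. Umod, the loop of Henle gene for uromodulin, read -0.14 and -0.33 in mice 1 and 2 and 0.19 and 0.27 in mice 3 and 4. The other of the 2 measured markers of the loop and distal tubule, Ppp1r1a, was below 0 in each, at -0.14, -0.094, -0.39 and -0.17 (adjusted p = 0.177 against the pool by limma). Fabp4, the 1 measured of 5 adipose markers, differed between mice (adjusted p = 0.0108 by the F test), as did Svs5 (2.2e-05) and Umod (0.0125). Fabp4 read -0.11, 0.34, 0.02 and -0.47 in mice 1 to 4, so mice 3 and 4 did not stand apart from mice 1 and 2. The part of these genes was not tested either.

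At an unadjusted p under 0.05 the F test took 11 of the 82 genes (13.4%), close to the 13.6% of all genes. The lowest value of a Timm gene was in mouse 3 for 4 and in mouse 4 for 3 of 11 genes. Over all 82 genes it was in mouse 3 or 4 for 52.4%, as for 50.9% of all genes tested.

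None of the 7 outer membrane genes had an unadjusted p under 0.05 against the pool, where 16.8% of all genes did. Their median was -0.011. The 2 lowest were Tomm5 and Tomm22, both of the TOM complex. Tomm5 read -0.017, 0.063, -0.32 and -0.28 in mice 1 to 4 (mean -0.14, SE 0.095, adjusted p = 0.352), and the receptor gene Tomm22 read -0.052, 0.028, -0.21 and -0.23 (mean -0.12, SE 0.063, adjusted p = 0.334). Both were near 0 in mice 1 and 2 and lower in mice 3 and 4. Tomm5 was at -0.08 without array 2 of mice 1 and 4.

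Tomm40, the channel of the complex, was at 0.032 (SE 0.043), and its paralogue Tomm40l at -0.062 (SE 0.035). The receptors Tomm20 and Tomm70a were at 0.010 (SE 0.051) and -0.011 (SE 0.046), and Tomm34, a cytosolic chaperone-binding protein, at 0.015 (SE 0.073). The 2 probes of Tomm34 differed in sign, at 0.07 and -0.04. In mice 1 to 4, 1 probe of Tomm70a read 0.14, 0.16, -0.11 and -0.18 and the other -0.04, -0.02, 0.05 and -0.09. For Tomm20 the arrays ran from -0.58 to 0.48, so its mean says little about any 1 kidney.

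Of the 7 Chchd genes, 4 were below 0 (57.1%, against 51.8% of all genes), with a median of -0.034. Chchd3, a subunit of the MICOS complex that shapes inner membrane cristae, read -0.037, 0.009, -0.25 and -0.36 in mice 1 to 4. Its mean was -0.16 (SE 0.087, p = 0.0438, adjusted p = 0.28 by limma), and its 2 probes read -0.18 and -0.13. Chchd6, the paralogue in the same complex, was above 0 in every mouse, at 0.029, 0.058, 0.10 and 0.22 (mean 0.10, SE 0.042, adjusted p = 0.331).

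Chchd4, the oxidase of the Mia40 relay that folds the small TIMs, was at -0.045 (SE 0.043, adjusted p = 0.653). Chchd1, a protein of the small ribosomal subunit despite its name, was at -0.089 (SE 0.067) and Chchd7 at -0.034 (SE 0.031). Chchd2 and Chchd10, a pair of paralogues known from inherited neurological disease, were at 0.023 (SE 0.019) and 0.030 (SE 0.039).

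Related genes that the symbols do not catch were read from lists set in the design, and none was called against the pool in any of them. Oxa1l, which inserts newly made proteins into the inner membrane, read 0.26, 0.14, 0.30 and 0.28 in mice 1 to 4, above 0 in each (mean 0.24, SE 0.037, p = 0.000819, adjusted p = 0.115 by limma). Dap3, a small subunit protein, was at -0.003 (SE 0.050). The list of ribosome-associated proteins with other names held 6 symbols, of which these 2 were measured. Another of the 6, Ict1, is an older name of Mrpl58, which is among the 82 genes.

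The list of translation and ribosome assembly factors held 32 symbols, some of them older names of genes also listed. Of these symbols 14 were measured, with a median of -0.004 and 8 below 0 (57.1%, against 51.8% of all genes). Mpv17l2, an assembly factor, was above 0 in all 4 mice (mean 0.23, SE 0.081, adjusted p = 0.172), followed by the elongation factor gene Tsfm (0.089), the release factor gene Mtrf1l (-0.10) and Fastkd2 (-0.085), with adjusted p-values from 0.363 to 0.379. The helicase gene Ddx28 was the 1 factor that differed between mice (adjusted p = 0.0111 by the F test), at -0.32, -0.28, 0.23 and 0.049 in mice 1 to 4. Mice 1 and 2 were the low ones here, the reverse of Timm17a.

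For the import motor, presequence processing and outer membrane assembly, 16 of 26 symbols were measured, an older name being among the 26. Of the 16 genes, 13 were below 0 (81.2%, against 51.8% of all genes), with a median of -0.082. An unadjusted p under 0.05 was found for 5 (31.2%, against 16.8%). The 4 smallest p-values were those of Dnajc15 (-0.17, SE 0.043), Hspe1 (-0.21, SE 0.094), Dnajc19 (-0.17, SE 0.065) and Mtx2 (-0.11, SE 0.020), with adjusted p-values from 0.174 to 0.275 by limma. Dnajc15 and Dnajc19 encode co-chaperones of the import motor, Hspe1 the matrix co-chaperonin and Mtx2 an outer membrane assembly protein. The median by mouse was -0.050, -0.003, -0.10 and -0.17, and 11 of the 16 genes (68.8%) were lowest in mouse 4, against 23.1% of all genes. That share was 48% for the respiratory chain and ATP synthase and 32.6% for cytosolic ribosomal proteins, both described below. Mtx1, the partner of Mtx2, differed between mice (adjusted p = 0.0426 by the F test), at 0.13, 0.23, -0.042 and -0.24.

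Of 19 symbols listed for inner membrane organisation and proteolysis, an older name of Micos10 among them, 13 were measured, with a median of -0.006. Micos10, a MICOS subunit like Chchd3, was below 0 in all 4 mice (mean -0.24, SE 0.055, p = 0.00201, adjusted p = 0.145), and the protease gene Spg7 above 0 in all 4 (0.16, SE 0.047, adjusted p = 0.186). Oma1 was at -0.14 (SE 0.068) and Micos13 at -0.10 (SE 0.055). For regulators of mitochondrial DNA and biogenesis, 10 of 18 symbols were measured, an older name being among the 18. Of these 10, 5 were below 0 (50%, against 51.8% of all genes), with a median of -0.005. Tfam, which packages mitochondrial DNA, was at -0.12 (SE 0.038, adjusted p = 0.273), the polymerase gene Polrmt at 0.14 (SE 0.043, adjusted p = 0.212), Slirp at -0.19 (SE 0.092) and Pprc1 at 0.12 (SE 0.074). Of the factors whose motifs were searched, Gabpa was at -0.037 (SE 0.050) and Yy1 at 0.029 (SE 0.051), while Gabpb1 was not measured. Nrf1 was at -0.067 (SE 0.011, adjusted p = 0.439 by limma) and below 0 in all 4 mice.

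**Figure D3:**
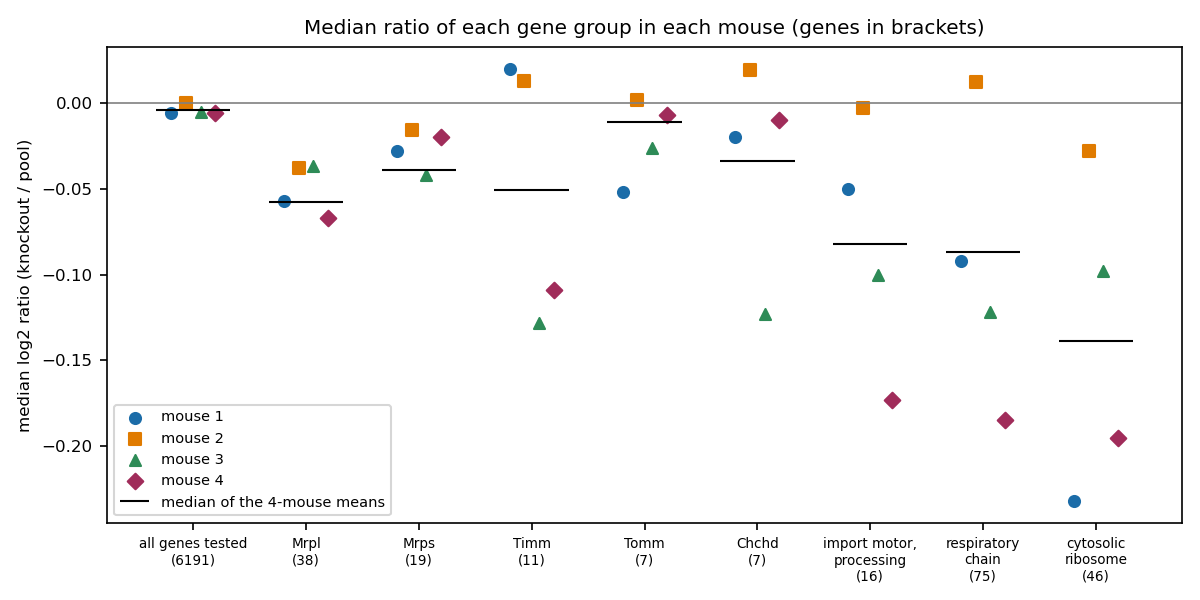
Median log2 ratio of knockout over pool (y axis) of each gene group in each mouse (symbols), with a black line at the median of the 4-mouse means and the number of genes in brackets. The medians of the Timm genes are 0.020 and 0.013 in mice 1 and 2 and -0.13 and -0.11 in mice 3 and 4, and the cytosolic ribosome is lowest in mouse 1, at -0.23.

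For scale, 2 other families chosen by symbol were read in the same way. The 75 measured genes of the respiratory chain and ATP synthase had a median of -0.087, with 64 below 0 (85.3%) and 36% at an unadjusted p under 0.05. The 46 cytosolic ribosomal protein genes had a median of -0.14, with 42 below 0 (91.3%) and 58.7% at such a p. Over all genes these shares were 51.8% and 16.8%. None of either family was called. The symbols also take in 5 complex I assembly factors (Ndufaf genes) in the former and the binding protein Rps19bp1 in the latter, and without these the medians were -0.092 over 70 genes and -0.14 over 45. The respiratory chain median was 0.012 in mouse 2 and -0.19 in mouse 4, and that of the cytosolic ribosome -0.23 in mouse 1 and -0.028 in mouse 2. The mouse with the median nearest 0 was mouse 2 in both families and among the 82 genes. The distance between the groups also depended on the arrays. On arrays 1 and 2 the median was -0.135 for the respiratory chain, -0.226 for the cytosolic ribosome and -0.047 for the 82 genes. On arrays 3 and 4 it was -0.037, -0.063 and -0.034 in the same order. No test of the difference between families was made, since all use the same mice and the same pool.

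**Figure D4:**
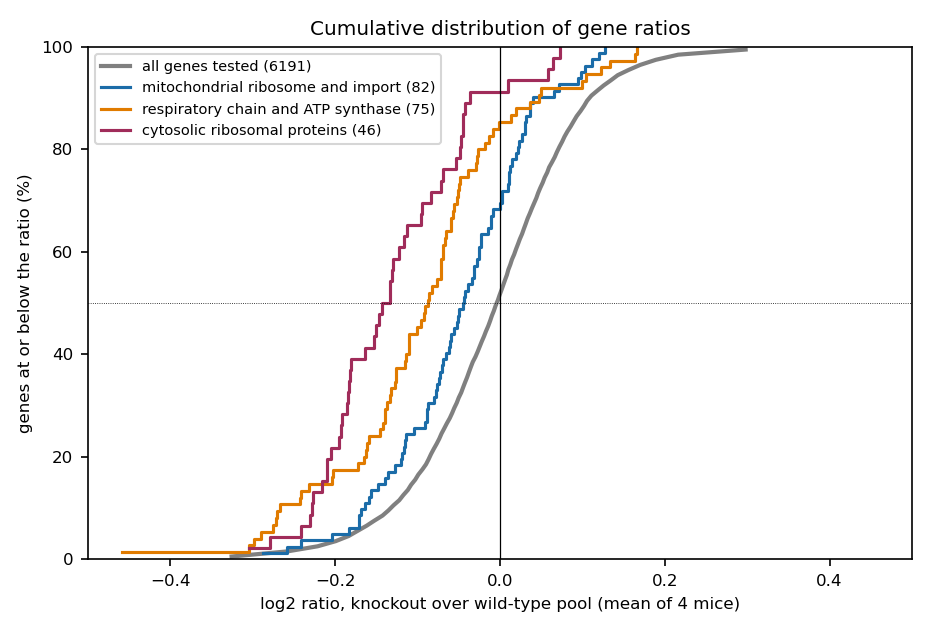
Share of genes (y axis, percent) at or below a given log2 ratio of knockout over pool (x axis, mean of 4 mice) for all genes tested, the 82 mitochondrial ribosome and import genes, the respiratory chain with ATP synthase, and cytosolic ribosomal proteins. The curves cross 50% at -0.004, -0.045, -0.087 and -0.14 in that order.

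The 2 dye orientations of each mouse were compared next. The difference between orientations passed the adjusted threshold for none of the 82, as for 0% of all genes, with a smallest adjusted p of 0.186 by limma. At an unadjusted p under 0.05 there were 9 (11%), where 19.5% of all genes had one. A ratio below 0 in both orientations was found for 37 of 82 (45.1%), against 29.4% of all genes. The medians were -0.036 with knockout RNA in channel 1 and -0.042 in channel 2.

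Repeats of the same RNA were compared as well. Arrays 1 and 2 against arrays 3 and 4 gave no call among the 82 (smallest adjusted p 0.955 by limma), as among 0% of 6190 genes, and 1 (1.22%) at an unadjusted p under 0.05, where 3.96% of all genes had one. That gene was Chchd7, at -0.18 on the former and 0.050 on the latter. The median was -0.047 on arrays 1 and 2 and -0.034 on arrays 3 and 4. Tested against 0 with arrays 1 and 2 alone, 17 genes (20.7%) had an unadjusted p under 0.05, against 13.1% of all genes, and with arrays 3 and 4 alone 2 (2.44%) did, against 10.6%.

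Taking the 16 arrays as measurements with mouse as a random block called 7 of the 82 genes (8.54%), where it called 7.54% of all genes (467 of 6191, limma). All 7 were below 0: Mrpl42, Timm8b, Timm9, Mrpl20, Chchd3, Mrpl18 and Mrpl51, with adjusted p-values from 0.0037 to 0.0495. The estimated correlation of arrays within a mouse was 0.014, so this fit treats repeats of 1 kidney nearly as separate animals.

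Of the 82 genes, 2 share chromosome 16 with Slc15a2. Tomm70a lay 259 and Mrpl39 491 genes away from it in gene order. Their ratios were -0.011 (adjusted p = 0.923) and -0.026 (adjusted p = 0.772) by limma.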

How the data were processed

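Per the labels, RNA was reverse transcribed, labelled indirectly with Cy3 or Cy5, hybridised to spotted cDNA arrays and scanned, and the authors subtracted background and scaled intensities to give each array a median ratio of 1. The deposited values are log2 ratios per probe and array, with base worked out from the values (46.5% of distances between repeated values matched log2, 0% other bases), and numerator channel and blank filter not given in the sources used here.

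Signs were turned to knockout over pool, arrays centred on their medians, and arrays averaged within orientation and then mouse. Genes are means of their single-gene probes (93 probes for the 82 genes). Of 11 genes with 2 probes, 5 had probes of unlike sign, and 12 probes that also name another gene were left out. Ratios were tested against 0 with limma 3.58.1 (lmFit, eBayes; R 4.3.3), two-sided, with Benjamini-Hochberg adjustment over 6191 genes and a threshold of 0.05; SEs are plain, over 4 mice. Mice were compared by a moderated F test over arrays with a dye term. Scripts were tested on simulated data. Precision is limited by the 4 animals, their arrays and the single pool.

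The genes, lists and tests were chosen with earlier results of these data known. Named were all Timm, Tomm and Chchd genes, the 8 Mrpl and 6 Mrps genes with smallest p and the 2 highest of each, any gene past a test, the 3 largest SDs between mice, and up to 4 genes of each related list. Ddx28, Mtx1, Dap3, Gabpa, Nrf1 and Yy1, and the markers Slc22a8, Svs5, Umod, Ppp1r1a and Fabp4, were named after their values were seen. Alternatives changed centring, scaling, probe filter, probe choice, orientation, array pair, block and mice. Gene order came from a RefSeq table (GRCm38.p6).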

Additional observations from a re-analysis of the deposited data

Results flagged for a closer look

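In 2 of the 42 named genes 1 mouse lay far from the other three. The ratio of Mrps26 was -0.06 in mouse 1, while mice 2 to 4 lay between 0.11 and 0.12. For Timm17b the first mouse read -0.02 and mice 2 to 4 read 0.13 to 0.14. Over all 82 genes this happened in 5 (6.1%), against 4.91% of all genes tested, and chance alone gives about 1 in 20.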

How the results depend on the processing

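The count of genes called against the pool was 0 under all alternatives except 2. It was 1 (Mrpl42, adjusted p = 0.0442 by limma) with probes that have a value on all 16 arrays, which left 43 of the genes among 2681, and 7 with arrays as measurements and mouse as a random block. The median ratio of the genes stayed between -0.034 and -0.051 when centring, scaling, filter, probe choice, orientation, array pair, block or mice were varied, and was -0.032 without array 2 of mouse 1, -0.037 without array 2 of mouse 4 and -0.018 without both, the last a move larger than the SD of the mouse medians (0.019). The count called between mice ranged from 0 to 1 when each mouse was left out in turn. Calls between orientations and between array pairs stayed at 0 wherever they were computed. Of 693 values of named genes under alternatives, 29 had the other sign and 20 moved by more than 1 SD between mice. No paired analysis was possible because the reference is 1 pool with no replicate of its own. Without intensities dim spots could not be set apart.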
